A study of Sus scrofa with 2 samples.

Results

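Hybrid spots were the spots of pig psoas major in which the slow myosin MYH7 made up more than 0.5 and less than 0.75 of the myosin messages counted. They were chosen by the raw unique molecular identifiers (UMIs, the tags that mark single captured molecules) of 3 genes: the MYH7 share of the UMIs of MYH7, MYH2 and MYH4, in spots with at least 10 such UMIs. This rule found 457 hybrid spots, 199 in section 1 and 258 in section 2, among 3286 spots with enough myosin UMIs and 5426 spots in all. The labels give muscle of 2 female Landrace pigs, with no treatment and no age stated, and the 2 sections, taken as 1 per pig, lay on the same slide. Each section was cut at 15 µm from a snap-frozen block of this muscle of the loin, which the labels call a representative oxidative slow muscle. A Visium spot is a small barcoded patch that can hold parts of several fibres and of the tissue between them, so hybrid describes the spot and not a fibre. A spot with a hybrid fibre and a spot that straddles a slow and a fast fibre cannot be told apart by this rule. The question was whether hybrid spots read like a blend of slow and fast spots, and which genes left that blend.

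A muscle fibre is typed by the myosin heavy chain it makes. MYH7 is the slow type I chain, MYH2 the fast type IIA chain and MYH4 the fastest, type IIB chain of the pig. Slow fibres pair their myosin with slow light chains, troponins and tropomyosin and burn fuel in mitochondria, fast fibres use fast versions of the same proteins and rely more on glycolysis, and hybrid fibres that make more than 1 heavy chain are known from many mammalian muscles. Blood vessels run between fibres, and their walls hold smooth muscle cells and pericytes.

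MYH7 (ENSSSCG00000002029, chromosome 7:75650841-75672908 of Sscrofa11.1), MYH2 (ENSSSCG00000029441, chromosome 12:55252974-55278820) and MYH4 (ENSSSCG00000018003, chromosome 12:55190545-55216294) set the class, so their levels are a description. MYH7 stood at 10898 and 10970 CPM (UMIs of the gene scaled to a common library total) in the hybrid spots of sections 1 and 2, between 3050 and 2983 at the fast end (share at most 0.35) and 22344 and 20930 at the slow end (share at least 0.85). MYH2 stood at 5282 and 5367 CPM in hybrid spots, against 8835 and 8908 at the fast end and 1298 and 1462 at the slow end. Hybrid spots carried both chains in nearly every spot: MYH7 UMIs were present in 199 of 199 and 258 of 258 spots, and MYH2 UMIs in 198 and 257 of them. The lowest and highest MYH7 shares inside the class were 0.515 and 0.745 in section 1 and 0.507 and 0.746 in section 2. Within 0.02 of the upper limit, 22 and 21 spots lay inside and 27 and 29 outside, and within 0.02 of the lower limit 4 and 9 lay inside and 22 and 40 outside. The outside counts at the lower limit include spots at exactly 0.5, which the rule leaves out.

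Hybrid spots made up 14.2% (exact 95% binomial interval 12.4 to 16.2) of the classed spots of section 1 and 13.7% (12.2 to 15.3) of those of section 2. Spots were most frequent at high MYH7 shares in both sections. In section 2 the shares had a second, lower peak at 0.2 to 0.3 with the hybrid range between, while in section 1 the hybrid bins held 24 to 54 spots and the bins up to 0.35 held 15 to 66. Because a spot held few myosin UMIs, with medians of 29 and 40.5 in hybrid spots, its own share was uncertain. The exact 95% interval of the share left out both 0.35 and 0.85 in 109 spots (54.8%) of section 1 and 179 (69.4%) of section 2, and lay wholly inside the hybrid limits in 1 and 5 spots. These intervals cover counting error only.

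Depth and mitochondrial content moved with the class. Hybrid spots held medians of 1869 and 2306 UMIs, the fast end 1076 and 1358, and the slow end 3119 and 3731. Thinned to 1000 UMIs each, hybrid spots showed medians of 392 and 391 genes (167 and 234 spots were deep enough), the slow end 388 and 393 (543 and 599 spots) and the fast end 373 and 366 (189 and 411 spots), against 603 and 712.5, 825 and 935, and 380.5 and 442 before thinning. The 13 mitochondrially encoded genes took a median of 16.1% and 15.3% of the UMIs in hybrid spots, 11.10% and 10.67% at the fast end and 19.7% and 19.1% at the slow end. With spots of 1000 to 3000 UMIs alone, 2693 genes could be tested, of which 4 lay above and 26 below the line defined below, among them 7 slow contractile, 3 fast contractile, 3 glycolytic and 3 ribosomal genes below it and 0 smooth muscle genes above it (5 at an unadjusted p under 0.05).

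The contractile index asked whether single hybrid spots were intermediate in genes the rule had not used. It is the share of slow UMIs (MYL2, MYL3, TNNT1, TNNI1, TNNC1 and TPM3) among these and their fast counterparts (MYLPF, MYL1, TNNT3, TNNI2 and TNNC2) in a spot. Its median was 0.299 and 0.283 in hybrid spots, 0.081 and 0.074 at the fast end, and 0.764 and 0.720 at the slow end. The middle 50% of hybrid spots ran from 0.209 to 0.375 in section 1 and from 0.218 to 0.367 in section 2. Of the hybrid spots, 177 (88.9%) and 236 (91.5%) lay between the 90th percentile of the fast end and the 10th percentile of the slow end, where by construction about 10% of the spots of each end lie. Above that band lay 5 and 5 spots and below it 17 and 17, so most single hybrid spots stood between the ends. Spots are not replicates, and no test was run on them.

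**Figure D1:**
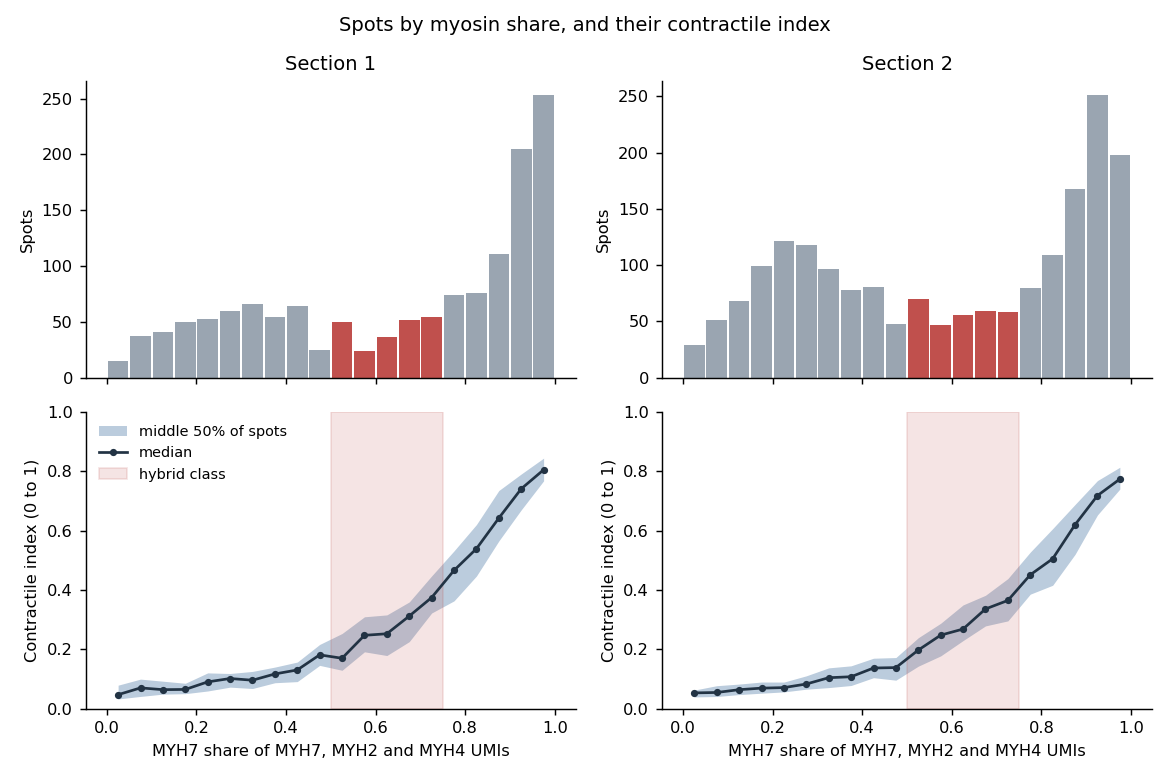
Top: number of spots by MYH7 share of the MYH7, MYH2 and MYH4 UMIs in bins of equal width, with the hybrid range in red (spots at exactly 0.5, which the rule leaves out, fall in the first red bar). Bottom: median contractile index (0 to 1) of the spots of each bin with the middle 50% shaded; in the hybrid range the curve climbs through class medians of 0.299 in section 1 and 0.283 in section 2, nearer to the fast end than to the slow end.

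Of the 2 fast chains counted, MYH2 made up most in hybrid spots; MYH1, the chain of type IIX fibres, was not analysed here. MYH4 took 8.96% (exact 95% interval 7.84 to 10.2) of the MYH2 and MYH4 UMIs of hybrid spots in section 1 and 10.7% (9.78 to 11.7) in section 2. At the fast end it took 20.03% (18.9 to 21.2) and 17.0% (16.3 to 17.8), at the slow end 9.31% (8.20 to 10.5) and 8.86% (7.96 to 9.82). These genes chose the classes, so the shares are a description, and the intervals cover counting error only and leave out the spread between spots and pigs. A MYH4 UMI was found in 88 of 199 and 131 of 258 hybrid spots. Of the developmental chains that regenerating fibres make, MYH3 had 0 UMIs in the hybrid spots of section 1, which allows up to 7.43 CPM, and 2 UMIs in those of section 2, and MYH8 had 0 in each, which allows up to 7.43 and 4.62 CPM.

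If hybrid spots were a blend of both ends, the level of every gene would lie on the straight line from its fast-end to its slow-end level, at the same point for all genes. For each section that point was fitted over all tested genes on the CPM scale: hybrid spots stood 0.493 of the way from the fast to the slow end in section 1 and 0.502 in section 2. The departure of a gene is the log2 ratio of its hybrid level to its level on that line, so 0 is a blend. UMIs were summed per section and class, and CPM below carry the TMM scaling of edgeR, which sets the bulk of genes equal between sums. Of 4281 genes tested, 43 (1.00%) lay above the line and 90 (2.10%) below it at an adjusted p under 0.05 (edgeR quasi-likelihood, two-sided, Benjamini-Hochberg), 42 and 89 of them with the same sign in both sections. The median departure of all genes was -0.02. This balance depended on the scaling: with UMI totals alone 75 lay above and 21 below, and with sums divided by the number of spots 146 and 16, with median departures of all genes of 0.11 and 0.16. Of the 43 genes above the line 42 were called above it under all 4 scalings, and of the 90 below it 13 were called below it under all 4.

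**Figure D2:**
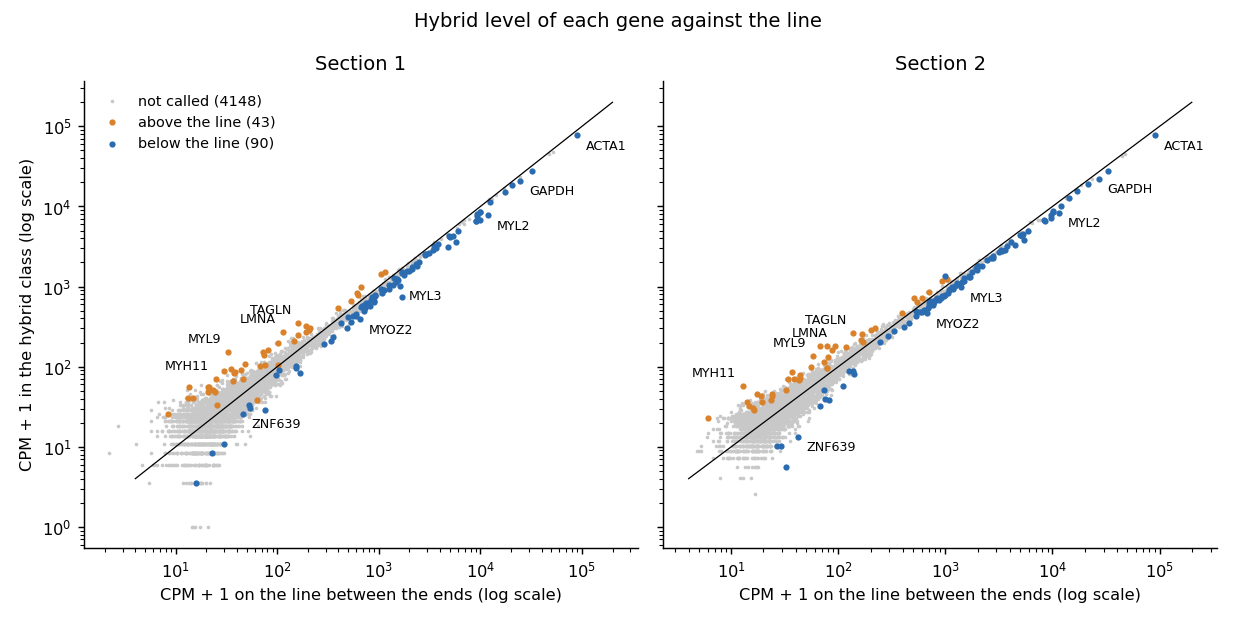
Level of each of 4281 genes in the hybrid spots (CPM + 1) against its level on the line between the ends (CPM + 1), both on log scales, for each section; the diagonal is a blend. The 43 genes called above the line (orange) are mostly of low level, and the slow contractile genes MYL2, MYL3 and MYOZ2 stand among the 90 called below it (blue).

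Among lists with more than 1 tested gene, the slow contractile genes had the largest share below the line. Of 22 listed, 20 matched a gene by name and 19 passed the filter on low counts, and 10 of these (52.6%, against 2.10% of all tested genes) fell below the line and 0 lay above it, also at an unadjusted p under 0.05. Their median departure was -0.36, beside -0.02 for all genes, and 18 of 19 departures were negative. Summed over the 19 genes, the level was 45148 and 46646 CPM in hybrid spots, 21078 and 20455 at the fast end, and 103304 and 96729 at the slow end. On that scale hybrid spots stood 0.29 and 0.34 of the way to the slow end, short of the 0.493 and 0.502 fitted over all genes. This position ran from 0.25 to 0.40 over the sections and settings tried, and the number called below the line from 7, in spots of 1000 to 3000 UMIs, to 12, with stricter ends. In the class next to hybrid on the fast side, the slow contractile sum stood at 0.06 and 0.09. The fast contractile sum stood there at 0.35 and 0.30, and the mitochondrially encoded sum at -0.005 and 0.18. In the class on the slow side, the slow contractile sum stood at 0.60 and 0.67 and the fast at 0.77 and 0.80. The slow contractile sum thus also trailed the fast one in the classes next to hybrid. In a bulk sum such as this, fewer cells of a type and less RNA per cell cannot be told apart.

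The regulatory light chain MYL2 (ENSSSCG00000039710, chromosome 14:32205953-32213848) stood at 7808 CPM in the hybrid spots of section 1 and 8300 in those of section 2. The line put it at 11921 and 11426 CPM, from 2502 and 2373 at the fast end and 21596 and 20423 at the slow end. Its hybrid level was below the line in both sections, with a departure of -0.53 ± 0.05 (standard error; adjusted p = 6.83e-25). The essential light chain MYL3 (ENSSSCG00000011325, chromosome 13:29730271-29735616) stood at 1026 and 984 CPM where the line gave 1612 and 1391, a departure of -0.57 ± 0.07 (adjusted p = 8.02e-13). MYOZ2, an anchor protein of the Z-disc in slow fibres (ENSSSCG00000032838, chromosome 8:104578942-104609367), stood at 388 and 466 CPM where the line gave 645 and 667, a departure of -0.61 ± 0.09 (adjusted p = 6.74e-09). All 3 genes rose without a break from the fast end through the hybrid class to the slow end.

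The slow thin filament behaved in the same way. TNNC1, the slow calcium-binding troponin (ENSSSCG00000011441, chromosome 13:34591571-34594320), stood at 6857 and 7181 CPM in hybrid spots, below line values of 9935 and 9796, with a departure of -0.49 ± 0.05 (adjusted p = 2.22e-21). TNNT1, the slow troponin that binds tropomyosin (ENSSSCG00000025353, chromosome 6:59351445-59365584), stood at 6603 and 6665 CPM against 9009 and 8517, a departure of -0.40 ± 0.05 (adjusted p = 2.67e-13). TNNI1, the slow inhibitory troponin (ENSSSCG00000024061, chromosome 10:23788279-23800554), stood at 6606 and 6765 CPM against 9067 and 8321, and TPM3, the slow tropomyosin (ENSSSCG00000006556, chromosome 4:95542329-95572946), at 3088 and 3294 CPM against 4832 and 4467. Their departures were -0.38 ± 0.05 and -0.54 ± 0.05 (adjusted p = 5.19e-12 and 1.04e-19). Of the slow genes, MYL2, MYL3, MYOZ2, TNNC1, TNNT1, TNNI1 and TPM3 were called below the line under each of the alternative fits, those without smooth-muscle-rich spots and with 1000 to 3000 UMIs included.

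Other members of the slow group stood at different distances from the line. The Z-disc and stretch-sensing protein CSRP3, the small heat shock protein HSPB6 and the thin-filament regulator LMOD2 were below it, with departures of -0.50, -0.36 and -0.26 (adjusted p = 6.12e-05, 7.04e-05 and 0.042). ATP2A2, the slow calcium pump of the sarcoplasmic reticulum, stood at 1315 and 1406 CPM in hybrid spots against line values of 1546 and 1555, a departure of -0.18 ± 0.07 that missed the threshold (adjusted p = 0.123). MYH7B, a slow-type myosin heavy chain encoded apart from MYH7, was the member with a positive departure. It stood at 194 and 175 CPM in hybrid spots against 52 and 58 at the fast end and 224 and 280 at the slow end, and its departure of 0.24 ± 0.14 missed the threshold (adjusted p = 0.456). The list was drawn up with earlier results of these data known, and its genes share the slow programme with MYH7, which chose the spots.

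MEF2 factors drive many contractile genes in muscle. Their site, searched by name on both strands in the 300 bases from 250 before to 50 after the annotated gene start (RefSeq, Sscrofa11.1), was found in 1 of the 10 slow contractile genes below the line, beside 2.87% of 19534 protein-coding genes and 7.14% of the 70 genes below the line with a window. That gene was MYOZ2, shown because it was the slow contractile gene farthest below the line, at chromosome 8:104609368-104609417 on the minus strand, from 30 bases before the start, with the site in capitals. A match is a description of the letters and not a measured site.
MYOZ2: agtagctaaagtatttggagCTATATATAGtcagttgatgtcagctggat

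**Figure D3:**
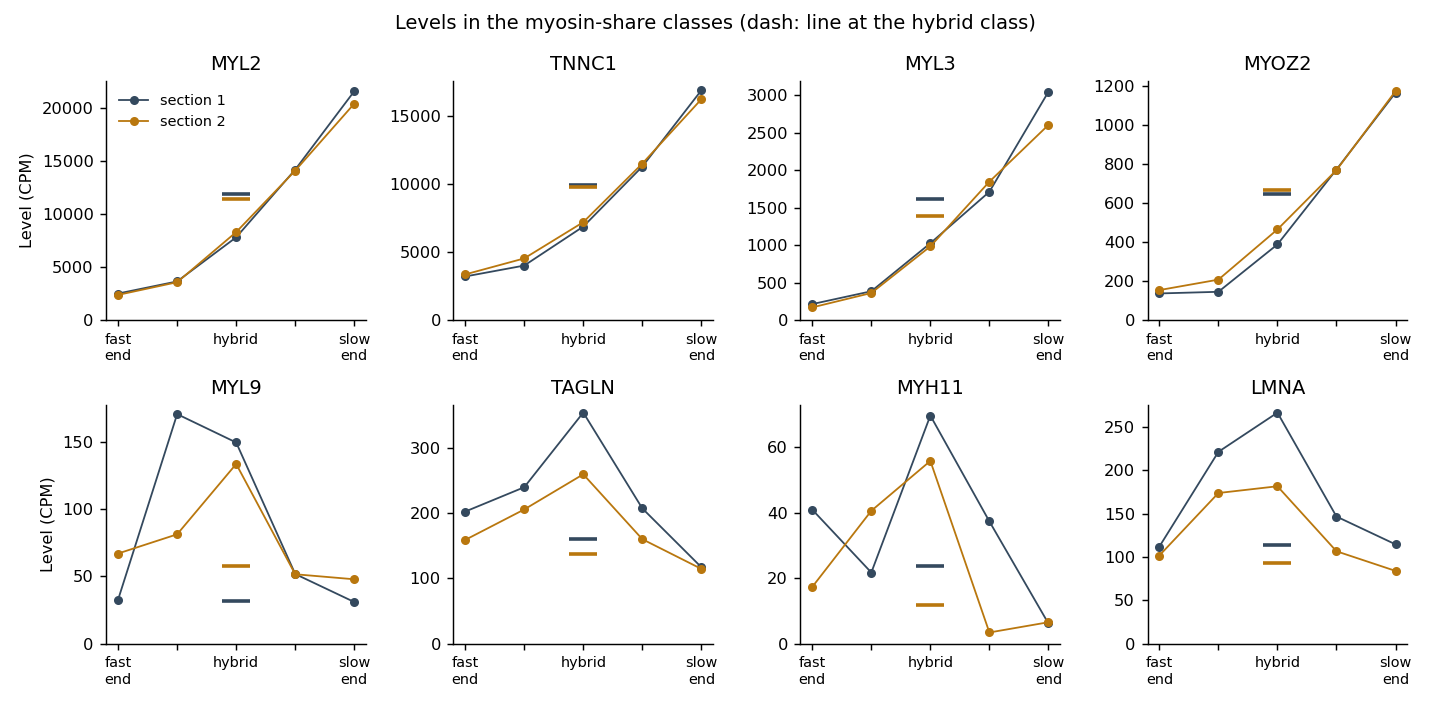
Level (CPM) of 8 genes in the 5 classes of MYH7 share, from the fast end to the slow end, 1 point per section and class, with a dash for the level on the line at the hybrid class. MYL2, TNNC1, MYL3 and MYOZ2 lie under their dashes in both sections, and MYL9, TAGLN, MYH11 and LMNA lie over them and over both ends.

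The summed level of the fast contractile genes stood on the other side of the fitted point. Summed over 18 tested members of 20, hybrid spots stood at 175257 and 180337 CPM, between 261284 and 273850 at the fast end and 121227 and 125784 at the slow end, that is 0.61 and 0.63 of the way to the slow end. Of the 18 genes 5 (27.8%, against 2.10% of all genes) were below the line (ACTA1, MYOZ1, MYOM2, MYL1 and MYLPF) and 0 above it, also at an unadjusted p under 0.05, with a median departure of -0.10. The summed level departed by -0.13 and -0.15, beside -0.13 and -0.13 for all tested genes summed. MYLPF, the fast regulatory light chain, stood at 18637 and 19029 CPM in hybrid spots against line values of 20597 and 21269, a departure of -0.15 ± 0.04 (adjusted p = 0.0183). ACTA1, the skeletal actin, stood at 77597 and 77835 CPM, level with the slow end (79895 and 78150) and under the fast end (99494 and 102016), with a departure of -0.21 ± 0.03 (adjusted p = 3.02e-07). ACTA1 made up the largest part of the summed level, and its own position was 1.12 and 1.01. These directions depended on the scaling: with UMI totals 0 of the 18 were below and 1 above the line, and with sums divided by the number of spots 10 were above it and ACTA1 and MYLPF turned to 0.012 and 0.27. With at least 20 myosin UMIs per spot, and without smooth-muscle-rich spots, 0 of the 18 were called (1 and 3 below the line at an unadjusted p under 0.05). The fast troponins TNNT3, TNNI2 and TNNC2 departed by -0.06, -0.01 and -0.01 and were not called. Their positions were 0.53 and 0.54, 0.49 and 0.52, and 0.50 and 0.51, near the fitted point.

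The summed glycolytic genes stood at a similar position to the summed fast contractile genes. The 14 tested members summed to 52301 and 56580 CPM in hybrid spots, 92994 and 102810 at the fast end, and 26220 and 29482 at the slow end, a position of 0.61 and 0.63. Below the line were 4 (28.6%, against 2.10% of all genes): the glycolytic enzymes GAPDH, ALDOA, ENO3 and LDHA. GAPDH stood at 20838 and 22180 CPM in hybrid spots against line values of 24746 and 26970, a departure of -0.27 ± 0.04 (adjusted p = 5.61e-08). On the per-spot scale all 4 turned positive, with departures of 0.12 for GAPDH, 0.16 for ALDOA, 0.16 for ENO3 and 0.21 for LDHA. Without smooth-muscle-rich spots 0 of the 14 were called (3 below at an unadjusted p under 0.05), and with at least 20 myosin UMIs per spot 0 were called (0 at an unadjusted p under 0.05). The summed level of the 11 tested glycogen genes stood at 0.58 and 0.59 of the way to the slow end.

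The summed oxidative genes stood nearer to the fast end on the TMM scale. The 13 mitochondrially encoded genes summed to 166707 and 158155 CPM in hybrid spots, 139654 and 133304 at the fast end, and 216742 and 204726 at the slow end, a position of 0.35 and 0.35. Their summed departures of -0.092 and -0.097, and those of -0.10 and -0.11 for the nuclear genes below, were smaller than the -0.13 and -0.13 of all tested genes summed. Below the line were 2 of 13 (15.4%, against 2.10% of all genes): COX1, the catalytic subunit of complex IV, at 15333 and 15478 CPM against line values of 17446 and 17061 (departure -0.16 ± 0.04, adjusted p = 0.00579), and the complex I subunit ND2. The 62 tested nuclear genes of oxidative phosphorylation stood at 0.32 and 0.32, with 4 of them (6.45%, against 2.10% of all genes) below the line: NDUFA4, COX7A2, NDUFA11 and COX7B, subunits of the respiratory complexes. NDUFA4 stood at 1058 and 1027 CPM in hybrid spots against 915 and 806 at the fast end and 1826 and 1648 at the slow end (departure -0.31 ± 0.07, adjusted p = 0.000854). With UMI totals the mitochondrially encoded genes stood at 0.55 and 0.53 with 0 of 13 called (1 below at an unadjusted p under 0.05) and the nuclear genes at 0.53 and 0.51 with 0 of 62 called (3 below), so their lean to the fast end depended on the scaling.

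The 22 tested genes of fatty acid oxidation stood at 0.43 and 0.46 and the 18 of the TCA cycle at 0.47 and 0.34, with 0 called in either list by edgeR, and 1 and 3 below the line at an unadjusted p under 0.05. FABP3, which carries fatty acids inside muscle cells, stood at 431 and 450 CPM in hybrid spots, between 180 and 181 at the fast end and 851 and 852 at the slow end, with a departure of -0.22 ± 0.09 (adjusted p = 0.213). CA3, the carbonic anhydrase of slow fibres, was below the line at 4240 and 4503 CPM against 5375 and 5254 (departure -0.28 ± 0.05, adjusted p = 5.8e-06). Carbonic anhydrase kept this call under all 4 scalings. CKM, the muscle creatine kinase, stood at 27820 and 27839 CPM, level with the slow end (28907 and 28547) and under the line (32115 and 32986), with a departure of -0.23 ± 0.04 (adjusted p = 9.36e-07) that shrank to -0.01 on the per-spot scale.

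**Figure D4:**
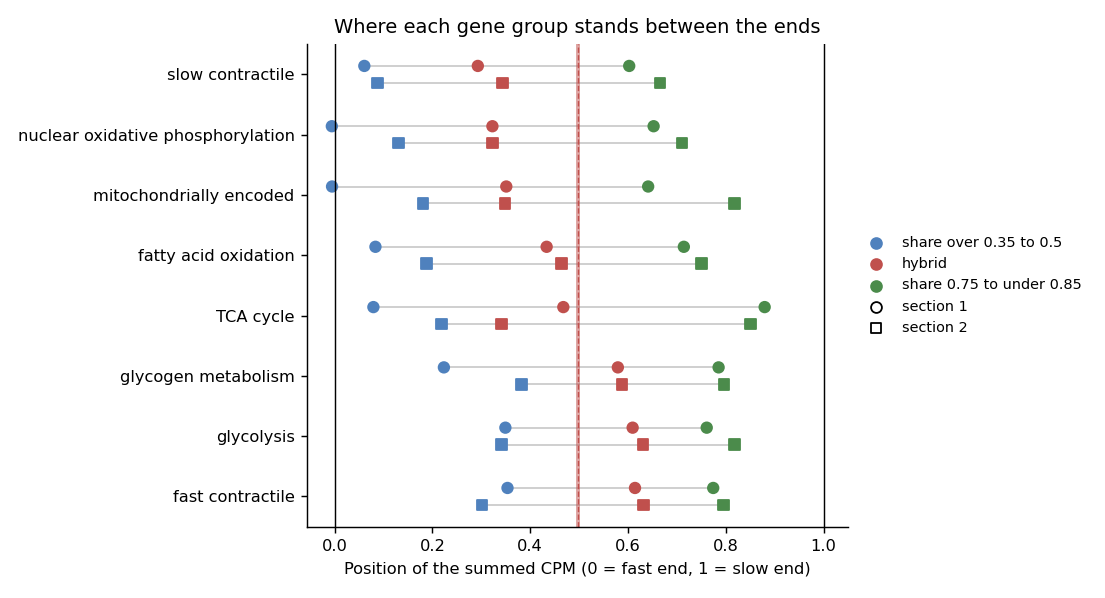
Position of the summed CPM of 8 gene groups between the fast end (0) and the slow end (1) for the hybrid class and its neighbours, with circles for section 1 and squares for section 2 and a band at the fitted 0.493 to 0.502. In the hybrid class the slow contractile genes stand at 0.29 and 0.34 and the fast contractile genes at 0.61 and 0.63. The fast sum includes ACTA1, which by itself stood at 1.12 and 1.01.

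The summed level of the ribosomal protein genes was lower in hybrid spots than at either end on the TMM scale. Summed over 52 tested genes of 77, the level was 55944 and 55028 CPM in hybrid spots, 67785 and 68312 at the fast end, and 60054 and 58635 at the slow end. Of these 52, 18 (34.6%, against 2.10% of all genes) were below the line, 0 above it, and 4 below both ends (0.210% of all genes were), with a median departure of -0.20. RPS24, a protein of the small subunit, stood at 632 and 718 CPM in hybrid spots, 841 and 876 at the fast end and 938 and 938 at the slow end, a departure of -0.40 ± 0.08 (adjusted p = 4.8e-05). With UMI totals 1 of the 52 was called below the line, and with sums divided by the number of spots 0 were, with a median departure of 0.01. Ribosomal genes often share sequence with processed copies elsewhere in the genome, and how such reads were counted was not examined.

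Genes beyond both ends need no fitted point: hybrid spots had to differ from the slow end and from the fast end in the same direction, each at an adjusted p under 0.05. Above both ends were 18 genes (0.420%) and below both ends 9 (0.210%). The 9 were RPS24, RPS15A, RPL39, RPL21, ND2, the growth-related protein TPT1, the zinc-finger protein ZNF639, PITHD1 and an unnamed gene. ZNF639 stood at 24.9 and 12.4 CPM in hybrid spots, 49.2 and 49.6 at the fast end and 40.3 and 31.9 at the slow end, 1.03 lower than the nearer end on the log2 scale. Its hybrid levels rest on few molecules, since 3 UMIs in the hybrid sums make about 7.43 and 4.62 CPM. No gene was below both ends with UMI totals or on the per-spot scale (edgeR), where 17 and 0 were at unadjusted p under 0.05.

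Smooth muscle genes led the genes above both ends. Of 8 tested members of the smooth muscle and pericyte list of 10, 5 (62.5%, against 1.00% of all genes) were above the line and the same 5 above both ends: MYL9, TAGLN, MYH11, ACTA2 and NOTCH3. The median departure of the list was 0.96. Its summed level was 1023 and 805 CPM in hybrid spots, 552 and 471 at the fast end and 403 and 454 at the slow end. The classes next to hybrid also stood above both ends in both sections, though below hybrid spots. The sum was 729 and 675 CPM in the class on the fast side and 670 and 524 in that on the slow side. Of the defining markers, ACTA2, MYH11 and TAGLN were above the line, RGS5 (134 and 123 CPM in hybrid spots) and CNN1 (64.7 and 51.2 CPM) were not called, and none was at 0.

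MYL9, the regulatory light chain of smooth muscle (ENSSSCG00000036402, chromosome 17:39788165-39795240), stood at 149 and 133 CPM in hybrid spots. Fast-end levels were 32.8 and 67.0 CPM and slow-end levels 31.0 and 47.8, so hybrid spots were higher than both ends in each section, with a departure of 1.55 ± 0.19 (adjusted p = 3.02e-13). In the class next to hybrid on the fast side (share over 0.35 to 0.5) it stood at 170 and 81.2 CPM, above the hybrid level in section 1 and below it in section 2. TAGLN, an actin-binding protein of smooth muscle (ENSSSCG00000015073, chromosome 9:44561756-44567385), stood at 354 and 259 CPM against 202 and 159 at the fast end and 117 and 114 at the slow end, a departure of 1.03 ± 0.13 (adjusted p = 3.02e-13). MYH11, the smooth muscle myosin heavy chain (ENSSSCG00000000146, chromosome 3:7002667-7143093), stood at 69.7 and 55.9 CPM against 41.0 and 17.4 and 6.19 and 6.57, a departure of 1.93 ± 0.34 (adjusted p = 1.64e-06). ACTA2, the vascular actin, stood at 162 and 132 CPM against 101 and 76.9 and 58.8 and 81.2, a departure of 0.88 ± 0.17 (adjusted p = 4.78e-05). The receptor NOTCH3 of pericytes and vascular smooth muscle stood at 54.8 and 27.9 CPM, a departure of 1.16 ± 0.32 (adjusted p = 0.0195).

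Smooth muscle genes are classic targets of serum response factor, which binds the CArG box. In the 300 bases from 250 before to 50 after the annotated gene start in RefSeq (Sscrofa11.1), a CArG box on either strand was found in 2 of the 42 genes above the line that had a window (4.76%), beside 299 of 19534 protein-coding genes (1.53%). A box was also found in 3 of 70 genes below the line (4.29%). The 2 above were TAGLN and MYL9, and both were also above both ends. A stretch of each is shown because the 2 genes rose together in hybrid spots. Each is given on the plus strand with the box in capitals: the TAGLN stretch lies at chromosome 9:44561545-44561594, the box shown starting 191 bases before the gene start, and the MYL9 stretch at 17:39788075-39788124, the box starting 70 bases before it. No binding was measured.
TAGLN: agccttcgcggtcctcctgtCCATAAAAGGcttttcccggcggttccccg
MYL9: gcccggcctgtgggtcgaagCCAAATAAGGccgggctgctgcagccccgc

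The smooth muscle signal sat in few spots. Hybrid spots held 418 and 530 UMIs of the list, and the 20 and 26 hybrid spots with the most held 67.5% and 70.0% of them. A single hybrid spot held 111 in section 1 and another 90 in section 2. Such unevenness was not limited to hybrid spots. The richest 10% of each class held 69.1% and 65.6% of its UMIs at the fast end and 43.8% and 43.4% at the slow end. They held 71.6% and 66.2% in the class next to hybrid on the fast side and 63.3% and 40.6% in that on the slow side. The standard errors and p-values given for these genes rest on the spread shared by all genes. They take no account of how unevenly the UMIs of these genes lay over the spots. At least 1 UMI of the list was found in 53.3% and 50.0% of hybrid spots, 28.4% and 32.1% of fast-end spots and 54.8% and 61.4% of slow-end spots. The 10% of spots of each section richest in these genes by share of UMIs took in 17.1% and 8.53% of hybrid spots. They took in 13.9% and 13.1% of the class next to hybrid on the fast side and 9.33% and 11.1% of that on the slow side. At the fast end the values were 10.2% and 10.4%, and at the slow end 6.50% and 8.75%. When the 10% of spots of each section richest in these genes were left out, 5 genes were called above the line, 4 of them among the 43, and the list had 0 of 6 called (1 above at an unadjusted p under 0.05), and without the 10% richest in matrix genes 4 genes were above it. Without the matrix-rich spots TAGLN, MYH11 and FLNA departed by -0.037, -0.13 and -0.053. The count also dropped to 4 in spots of 1000 to 3000 UMIs and to 6 in spots with at least 20 myosin UMIs. Which feature of these spots goes with the hybrid share was not tested, and neither the place of a spot nor the tissue images entered the work.

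Outside the smooth muscle list, 13 genes were above both ends. LMNA, which builds the nuclear lamina (ENSSSCG00000006496, chromosome 4:93899019-93927255), stood at 266 and 182 CPM in hybrid spots against 112 and 102 at the fast end and 115 and 84.0 at the slow end, a departure of 1.08 ± 0.14 (adjusted p = 5.01e-11). In the class next to hybrid on the fast side LMNA stood at 221 and 174 CPM, also above both ends. It kept a departure of 0.68 without matrix-rich spots and 0.60 without smooth-muscle-rich spots, where it was called in the first case and not in the second. CSRP1, a LIM protein abundant in smooth muscle, stood at 92.1 and 85.3 CPM against 35.5 and 36.0 and 32.2 and 36.6 (departure 1.32 ± 0.22, adjusted p = 9.36e-07). The actin cross-linkers FLNA and ACTN4 stood at 194 and 180 and at 87.1 and 49.7 CPM, with departures of 1.13 and 1.08 (adjusted p = 6.24e-10 and 0.00227). In the class next to hybrid on the fast side, CSRP1 stood at 65.3 and 85.8 CPM, FLNA at 181 and 156 and ACTN4 at 43.5 and 29.3. The matrix proteins TIMP3 and SPARCL1, both made in vessel walls, departed by 0.66 and 0.57. The 18 also hold IGFBP2, TCN2, PLS3, an unnamed gene and THBS4, whose departure had opposite signs in the sections.

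B2M and TMSB10, named here after their values were seen, were the 2 genes called above the line under each of the alternative fits. B2M, the light chain of class I histocompatibility molecules, stood at 1419 and 1161 CPM in hybrid spots against 989 and 804 at the fast end and 1107 and 1070 at the slow end, a departure of 0.38 ± 0.07 (adjusted p = 8.42e-06). TMSB10, which binds single actin units, stood at 989 and 850 CPM against 702 and 718 and 641 and 680, a departure of 0.40 ± 0.08 (adjusted p = 1.97e-05). Both were higher in hybrid spots than at either end in both sections. Both are made by many cell types other than muscle fibres, and the part of such cells in the result was not tested.

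Markers of other cells between fibres gave calls in 3 further lists, those of endothelium, matrix and fat cells. The 9 tested endothelial genes of 12 had a median departure of 0.59, with 1 called above the line (11.1%, against 1.00% of all genes), the water channel AQP1. It stood at 105 and 113 CPM in hybrid spots against 60.1 and 58.3 at the fast end and 89.2 and 85.8 at the slow end (adjusted p = 0.0463). PECAM1, the junction protein of endothelium, stood at 110 and 77.6 CPM and missed the threshold (departure 0.61 ± 0.20, adjusted p = 0.0673). Of 21 matrix genes 2 (9.52%) were above the line, COL1A2 and MGP, and of 6 fat cell genes 1 (16.7%), ADIRF, beside 1.00% of all genes. Of 5 macrophage genes 0 were above it (2 at an unadjusted p under 0.05). The departure of COL1A2 came almost wholly from section 2, at 0.91 beside 0.055 in section 1. The matrix genes summed to 2535 and 2899 CPM in hybrid spots, 3600 and 2949 at the fast end, and 1602 and 1580 at the slow end, so they fell between the ends. Their sum was highest outside the hybrid class, at 4272 and 3719 CPM in the class next to it on the fast side. ADIRF, a regulator of fat cell formation, stood at 107 and 77.6 CPM in hybrid spots, close to the fast end (81.9 and 75.7) and over the slow end (10.5 and 10.8), a departure of 1.00 ± 0.23 (adjusted p = 0.00128). The actin-severing DSTN, at 82.2 and 45.0 CPM, and the matrix protein AEBP1, at 64.7 and 68.3 CPM, departed by 1.12 and 0.99 (adjusted p = 0.00359 and 0.00593), and ADIRF, DSTN and AEBP1 turned to -1.01, -0.41 and -0.34 without matrix-rich spots. Satellite cell, nerve and lymphocyte lists had 1 tested gene each and 0 calls, also at an unadjusted p under 0.05.

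Of 9 tested genes for remodelling, denervation and regeneration, 1 was below the line, the myotendinous and Z-disc protein XIRP2, and 1 above it, the intermediate filament VIM, beside 2.10% and 1.00% of all genes. XIRP2 stood at 493 and 534 CPM in hybrid spots against 347 and 428 at the fast end and 1102 and 949 at the slow end, a departure of -0.46 ± 0.09 (adjusted p = 1.6e-05). VIM, which non-muscle cells make, stood at 306 and 258 CPM, near the fast end (311 and 227), a departure of 0.60 ± 0.12 (adjusted p = 0.000183). Its level was higher, at 413 and 343 CPM, in the class next to hybrid on the fast side. Of 16 atrophy and proteolysis genes 1 (6.25%, against 2.10% of all genes) was below the line, the mitophagy receptor BNIP3 (departure -0.34 ± 0.10, adjusted p = 0.0348). Of 11 stress genes 0 were called (3 above and 1 below at an unadjusted p under 0.05), and of 6 regulators of the fast programme 0, also at an unadjusted p under 0.05.

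**Figure D5:**
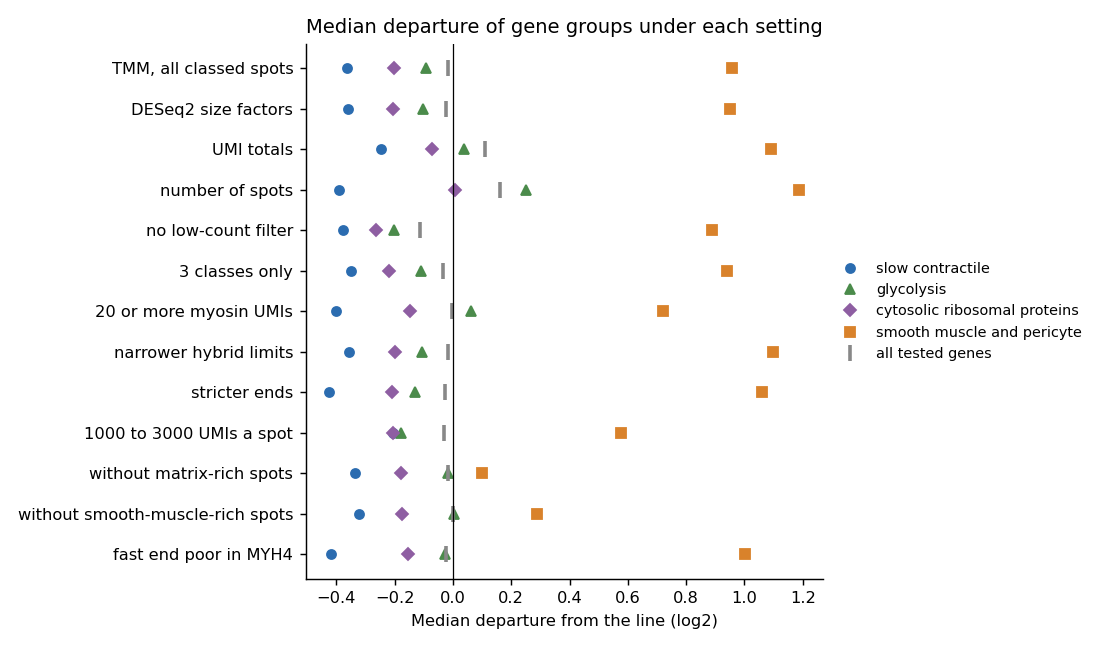
Median departure from the line (log2) of 4 gene groups and of all tested genes under the main setting and 12 others. The slow contractile genes stay left of 0 under each setting, from -0.42 to -0.21, while the smooth muscle genes move from 0.96 to 0.10 without matrix-rich spots and the glycolysis and ribosomal genes reach or cross 0 when sums are divided by the number of spots.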

How the data were processed

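The deposited files hold raw, unnormalized UMI counts per gene and spot. Per the submitters' processing notes the authors ran Space Ranger 1.1 on Sscrofa11.1, and per the methods they customised the reference, adding earlier gene models for the fast myosins MYH2 and MYH4. The labels mention barcoded pig RNA as a carrier, with no account of how its reads were handled. Section 1 held 3633249 UMIs in 2487 spots and section 2 held 5382677 in 2939, and 2104 barcodes, which are slide positions, occur in both. Spots over 25% mitochondrial UMIs (8 and 2) and then the 2% with the fewest UMIs (49 and 59) were removed, which took 3 and 0 would-be hybrid spots. The study also removed spots by hand; that list was not used here, nor were positions or images.

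UMIs were summed per section and 5 classes of MYH7 share (limits 0.35, 0.5, 0.75 and 0.85), giving 10 sums. MYH7, MYH2, MYH4 and 5 haemoglobin genes were left out. Genes passed filterByExpr with a minimum count of 10 and at least 15 spots per section. edgeR 4.0.16 in R 4.3.3 fitted all 10 sums (TMM, glmQLFit, section as block, as 1 pig gave all classes of a section). With 4 residual degrees of freedom, the shared spread between genes (biological coefficient of variation 0.0904) was used for every gene. Very small p-values depend on that pooling and measure the spread between these sums. The line was put into the fit as an offset, and a gene-specific contrast of hybrid against both ends was tested, two-sided, after a trial on simulated counts. The point on the line was fitted by weighted least squares per section. DESeq2 1.42.0 gave alternative size factors and an alternative test against the ends. Intervals are exact binomial.

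The hybrid spots, the gene lists and the rule for named genes were chosen with earlier results of these data known. Named were, in each direction, the 10 genes farthest from the line and up to 10 beyond both ends, with a symbol, 1 sign in both sections and at least 50 CPM in the highest class, and up to 4 members per list by p. Genes named by another route are the remaining called members of lists, markers, and those said to be named afterwards. Some items that these rules pick are not reported here. The feature list has 31780 genes, 15086 without a symbol, of which 785 were named by Ensembl identifier from gene-name references, RefSeq among them. Coordinates and promoter sequence came from the RefSeq annotation and genome of Sscrofa11.1.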

Additional observations from a re-analysis of the deposited data

How the results depend on the processing

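UMI totals and the fit without smooth-muscle-rich spots were added after the data were seen. Against 43 genes above and 90 below the line and 18 above and 9 below both ends, UMI totals gave 75, 21, 41 and 0 (17 below both at unadjusted p), sums divided by the number of spots 146, 16, 56 and 0, spots with at least 20 myosin UMIs 6, 16, 2 and 2, spots without the matrix-rich 10% 4, 45, 2 and 2, and spots without the smooth-muscle-rich 10% 5, 34, 4 and 3. Spots of 1000 to 3000 UMIs gave 4 above and 26 below the line and 3 above both ends. Without the replicate block (the pig) 28 lay above and 50 below. With no low-count filter 19 lay above the line and 7 above both ends, with stricter ends 65 above the line and 17 below both ends, with a fast end poor in MYH4 8 above and 5 below both ends, with DESeq2 size factors 14 below both, with 3 classes 17 below both, and with the DESeq2 Wald test 6 above both. The fitted point of 0.497 moved to 0.489 (DESeq2 size factors), 0.390 (number of spots), 0.470 (no low-count filter), 0.485 (myosin share), 0.507 (median over genes), 0.552 (20 myosin UMIs), 0.473 (narrower hybrid limits), 0.515 (stricter ends), 0.397 (1000 to 3000 UMIs), 0.548 (without matrix-rich spots), 0.529 (without smooth-muscle-rich spots) and 0.517 (fast end poor in MYH4). The contractile index of 0.291 moved to 0.309 with 20 myosin UMIs, and the MYH4 share of 9.85% to 11.8% with 1000 to 3000 UMIs. The cause of these moves was not tested. The sets limited by myosin UMIs or by depth, and those without matrix-rich or smooth-muscle-rich spots, also held fewer spots and fewer tested genes.

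Leaving out a section left no residual degrees of freedom, so called genes that keep their sign in the other section were counted: 42 to 43 above and 89 to 90 below the line, 17 to 18 above and 9 to 9 below both ends, with a point of 0.493 to 0.502, an index of 0.283 to 0.299 and a MYH4 share of 8.96% to 10.7%. Sign changes were listed for named genes called in the main fit or in the alternative, and those of named genes called in neither were not counted. Departures changed sign without matrix-rich spots for MYH11 (-0.13), FLNA (-0.053), DSTN (-0.41), TAGLN (-0.037), ADIRF (-1.01), AEBP1 (-0.34) and COL1A2 (-0.22). They did so without smooth-muscle-rich spots for DSTN (-0.30) and with 20 myosin UMIs for MYLPF (0.057). Per spot they did so for ACTA1 (0.012), MYLPF (0.27), GAPDH (0.12), ALDOA (0.16), ENO3 (0.16), LDHA (0.21), PYGM (0.24) and RPLP1 (0.0089).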

Other observations

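Among the genes farthest below the line, several of low level stood outside the lists. SELENOH, a selenoprotein, stood at 27.4 and 49.7 CPM in hybrid spots against 92.9 and 81.9 at the fast end and 55.7 and 62.9 at the slow end (edgeR, adjusted p = 0.0288). PITHD1 stood at 32.4 and 31.0 CPM against 51.9 and 71.9 at the fast end and 51.4 and 61.0 at the slow end. The acetyltransferase KAT2B, the import motor subunit PAM16 and the mitochondrial protein MGARP departed by -0.70, -0.63 and -0.58. HIF1A, a transcription factor of the oxygen response, stood at 39.8 and 29.5 CPM in hybrid spots, 13.7 and 14.9 at the fast end and 10.5 and 15.0 at the slow end, a departure of 1.31 ± 0.40 (edgeR, adjusted p = 0.0463) that was above the slow end and missed the threshold against the fast end.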
